A study of Mus musculus with 10 samples.

Results

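The genes described here are 10 genes of the integrated stress response, namely Atf4, Atf5, Ddit3, Trib3, Chac1, Asns, Ppp1r15a, Sesn2, Gdf15 and Fgf21. They were chosen by name, each was matched by its mouse Ensembl identifier to a gene symbol, and they are 10 of the 38922 genes in the tables. All 10 had enough counts to be tested, among 13719 tested genes. Their RNA was measured in whole livers of 5 saline-injected mice and 5 mice injected with CD95-Ab, an antibody that activates the death receptor CD95 (Fas) and causes acute liver failure. All were wild-type male C57BL/6N mice, 6 weeks old, fed standard chow without restriction. The antibody was given intraperitoneally at 0.5 µg per g of body weight, the controls received the same volume of saline, and livers were taken after 6 h. Each mouse gave 1 RNA-seq library, so a group is 5 animals at 1 time point and 1 dose.

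The integrated stress response is a pathway that slows protein synthesis when a cell is stressed. The kinases PERK, GCN2, PKR and HRI, encoded by Eif2ak3, Eif2ak4, Eif2ak2 and Eif2ak1, phosphorylate the translation initiation factor eIF2α, which lowers overall translation but raises translation of the mRNAs of ATF4, ATF5 and CHOP (the product of Ddit3). ATF4 and CHOP then activate genes of amino acid supply, of feedback on the pathway and of cell death, and in liver also the genes of the secreted proteins FGF21 and GDF15. Since control of ATF4 is largely translational, the RNA levels given here are not a measure of ATF4 protein or of eIF2α phosphorylation, which were not analysed here.

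The 10 genes did not move together. Compared to saline, CD95-Ab livers had more Atf4, Ddit3, Ppp1r15a and Gdf15 RNA, by 2.02- to 5.84-fold, whereas Atf5, Trib3, Chac1 and Fgf21 were lower, by 1.46- to 7.51-fold. Asns and Sesn2 did not pass the test. These calls come from the quasi-likelihood test of edgeR with Benjamini-Hochberg adjustment over all tested genes, at a false discovery rate (FDR) of 0.05. In the same test 47.3% of all tested genes passed, 25.4% higher and 22.0% lower, so calls in this liver were common in both directions. The median log2 fold change of the 10 genes was 0.06, beside 0.01 over all tested genes.

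ATF4 binds with C/EBP partners to composite sites of the form TGATGNAA, named CARE for C/EBP-ATF response element. The promoter windows of the 10 genes in RefSeq (GRCm38.p6), each from 250 bases before to 50 bases after the transcript start, were searched for TGATGNAA and for the palindrome TGACGTCA, the cAMP response element (CRE), on both strands. The first was present in 4 of the 10 genes, or 4 of their 12 promoter windows, and in 3.97% of 32851 promoter windows of all genes. Of these 4 genes, Fgf21, Chac1 and Trib3 were lower with CD95-Ab and Asns did not pass the test. The CRE was found in Ppp1r15a, or 1 of the 12 windows, and in 1.79% of all windows. Atf4, Ddit3 and Gdf15, which were higher, had neither set of letters in this window, which says nothing of sites elsewhere. The matches are shown within 30 bases of each promoter, written 5′ to 3′ in the direction of the gene, with the matching 8 letters in capitals. Fgf21, Chac1 and Trib3 fell, Asns did not pass the test, and only Ppp1r15a, which holds the CRE instead, rose. A match is a description of the letters and no evidence of binding.
Fgf21, chr7:45615611-45615640, minus strand: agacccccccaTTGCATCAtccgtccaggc
Chac1, chr2:119351038-119351067, plus strand: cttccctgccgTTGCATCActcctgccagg
Trib3, chr2:152344028-152344057, minus strand: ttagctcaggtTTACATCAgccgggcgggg
Asns, chr6:7693214-7693243, minus strand: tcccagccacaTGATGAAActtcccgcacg
Ppp1r15a, chr7:45526262-45526291, minus strand: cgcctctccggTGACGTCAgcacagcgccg

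For comparison, the TGATGNAA letters were also searched in the genes of the lists that are described further on. Promoters were found for 95 of these 126 genes, and 15 held a match, of which 6 were higher with CD95-Ab (Atf3, Slc7a11, Slc1a4, Yars, Nupr1 and Jdp2), 3 were lower (Vldlr, Got1 and Herpud1), 5 did not pass the test (Aars, Gars, Iars, Tars and Eif2s3x) and 1, Pycr1, was not tested. Of the called genes, 5 are shown as examples from both directions. Slc7a11 held 2 matches within 30 bases.
Atf3, chr1:191183425-191183454, minus strand: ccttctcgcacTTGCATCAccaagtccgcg
Slc7a11, chr3:50443651-50443680, minus strand: cTGATGCAAacctggagaatTTGCATCAtc
Slc1a4, chr11:20332699-20332728, minus strand: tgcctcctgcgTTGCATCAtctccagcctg
Vldlr, chr19:27216809-27216838, plus strand: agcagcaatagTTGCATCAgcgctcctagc
Got1, chr19:43524689-43524718, minus strand: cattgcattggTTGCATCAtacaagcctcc

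Fgf21 fell the most of the 10 genes, and the 250 bases before its start are shown whole, with the single TGATGNAA match in capitals on the reverse strand. No annotated exon overlaps them.
Fgf21, chr7:45615491-45615740, minus strand: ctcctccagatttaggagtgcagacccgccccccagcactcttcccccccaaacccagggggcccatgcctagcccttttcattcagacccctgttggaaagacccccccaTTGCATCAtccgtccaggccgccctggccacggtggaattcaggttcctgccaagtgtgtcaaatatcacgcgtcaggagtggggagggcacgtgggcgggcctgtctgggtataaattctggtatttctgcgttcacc

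Values per mouse are given below as CPM, or counts per 1000000 of the TMM-adjusted total of the mouse, in the order of replicates 1 to 5. The total of a mouse was 25965699 to 62097636 counts with saline and 27480796 to 44962196 counts with CD95-Ab, so 3 counts correspond to between 0.0556 and 0.121 CPM. Gene positions are those of GENCODE mouse release 21 (GRCm38) for the identifiers in the tables. Livers of mice injected with CD95-Ab also differed in their cell type markers. The summed CPM of 10 hepatocyte markers ranged from 108822 to 136693 in saline-injected mice and from 51242 to 91481 with CD95-Ab, and 6 of the 10 were lower (median log2 fold change -0.86). Most marker sums of other cell types went the other way. The sum was 4.35 to 10.9 CPM with saline and 106 to 422 CPM with CD95-Ab for 8 neutrophil markers, and 48.5 to 104 against 169 to 344 CPM for 6 sinusoidal endothelial markers. It was 140.1 to 202 against 347 to 580.4 CPM for 6 stellate cell markers, 18.3 to 33.8 against 48.3 to 186 CPM for 5 cholangiocyte markers, and 1.18 to 5.10 against 5.69 to 11.4 CPM for 6 T and NK cell markers. The 5 erythroid markers summed to 135 to 323 against 1064 to 33995 CPM. Of the tested markers, 6 of 6 were higher for neutrophils, 5 of 6 for sinusoidal endothelium and 4 of 6 for stellate cells. For cholangiocytes 4 of 5 were higher, for T and NK cells 5 of 6 and for erythroid cells 5 of 5. Single genes weighed heavily in some sums. With CD95-Ab, Dcn had a mean of 251 CPM among the stellate cell markers. Sox9 and Spp1 had 58.4 and 65.9 CPM among the cholangiocyte markers. For 7 Kupffer cell and macrophage markers the ranges, 90.2 to 282 and 169 to 341 CPM, overlapped, and 7 pancreatic acinar markers summed to at most 1.19 CPM in a mouse. The 10 transcripts listed as lacking a poly(A) tail summed to between 19.8 and 75.6 CPM in saline-injected mice and between 377 and 1337 with CD95-Ab. The sums rest mainly on different genes. With saline the largest was Hist1h1c (mean 42.6 CPM, and 24.5 with CD95-Ab), and with CD95-Ab it was Rn7sk (mean 742 CPM, and 0.392 with saline). Of 6 tested, 4 were higher and 2 did not pass the test. In bulk tissue, fewer cells of a type and less RNA per cell cannot be told apart, and the part of these shifts in the results below was not tested. Whether RNA quality or library preparation differed between the groups was not tested either. Such a difference could not be told apart from the treatment.

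Among the transcription factors, Atf4, the central activator of the pathway (ENSMUSG00000042406, chr15:80255184-80257541, plus strand), measured 57.3, 91.6, 58.0, 61.0 and 74.1 CPM in saline-injected mice and 133, 141, 127, 172 and 119 CPM in mice injected with CD95-Ab. The lowest CD95-Ab mouse was above the highest saline mouse. The mean rose from 68.4 ± 14.6 to 138 ± 20.3 CPM (SD, n = 5 mice per group), a log2 fold change of 1.01 with a standard error of 0.16 and a 95% interval from 0.66 to 1.37 (edgeR, FDR = 3.3e-04). The exact two-sided permutation test on log2(CPM + 0.1) gave p = 0.00794, the smallest that 5 mice against 5 allow, and the same p was reached by Ddit3, Ppp1r15a, Gdf15, Trib3 and Chac1, whose groups did not overlap either.

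Ddit3 encodes CHOP, a factor that promotes death of cells under lasting stress (ENSMUSG00000025408, chr10:127290774-127296288, plus strand). It measured 3.46, 6.05, 3.10, 6.62 and 8.08 CPM with saline and 16.3, 12.0, 10.4, 27.3 and 13.9 CPM with CD95-Ab. All CD95-Ab mice were above the saline mice, with replicate 4 the highest. The mean went from 5.46 ± 2.13 to 16.0 ± 6.71 CPM, a log2 fold change of 1.55 ± 0.32 (SE, edgeR, FDR = 0.00186). Mars overlaps Ddit3 on the opposite strand at the end of the gene only, at chr10:127296221-127296288. Over its whole length Mars had up to 2554 counts in a mouse. The methods give standard RSEM parameters, which do not use strand, so reads of the overlap cannot be told apart by strand. Mars itself did not pass the test.

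Atf5, which like ATF4 is controlled at translation and is abundant in liver (ENSMUSG00000038539, chr7:44812256-44816658, minus strand), went the other way. It measured 119, 166, 166, 171 and 139.8 CPM with saline and 96.2, 118, 101, 123 and 82.1 CPM with CD95-Ab. The groups overlapped by 1 mouse on each side, saline replicate 1 and CD95-Ab replicate 4. The mean fell from 152 ± 22.1 to 104 ± 16.6 CPM (log2 fold change -0.55, 95% interval -0.87 to -0.23, edgeR, FDR = 0.00941), and the exact permutation test gave p = 0.0159. Il4i1 and Nup62 overlap Atf5 on the opposite strand. Il4i1 had at most 90 counts in a mouse, and Nup62 is under an identifier that the tables do not hold.

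**Figure D1:**
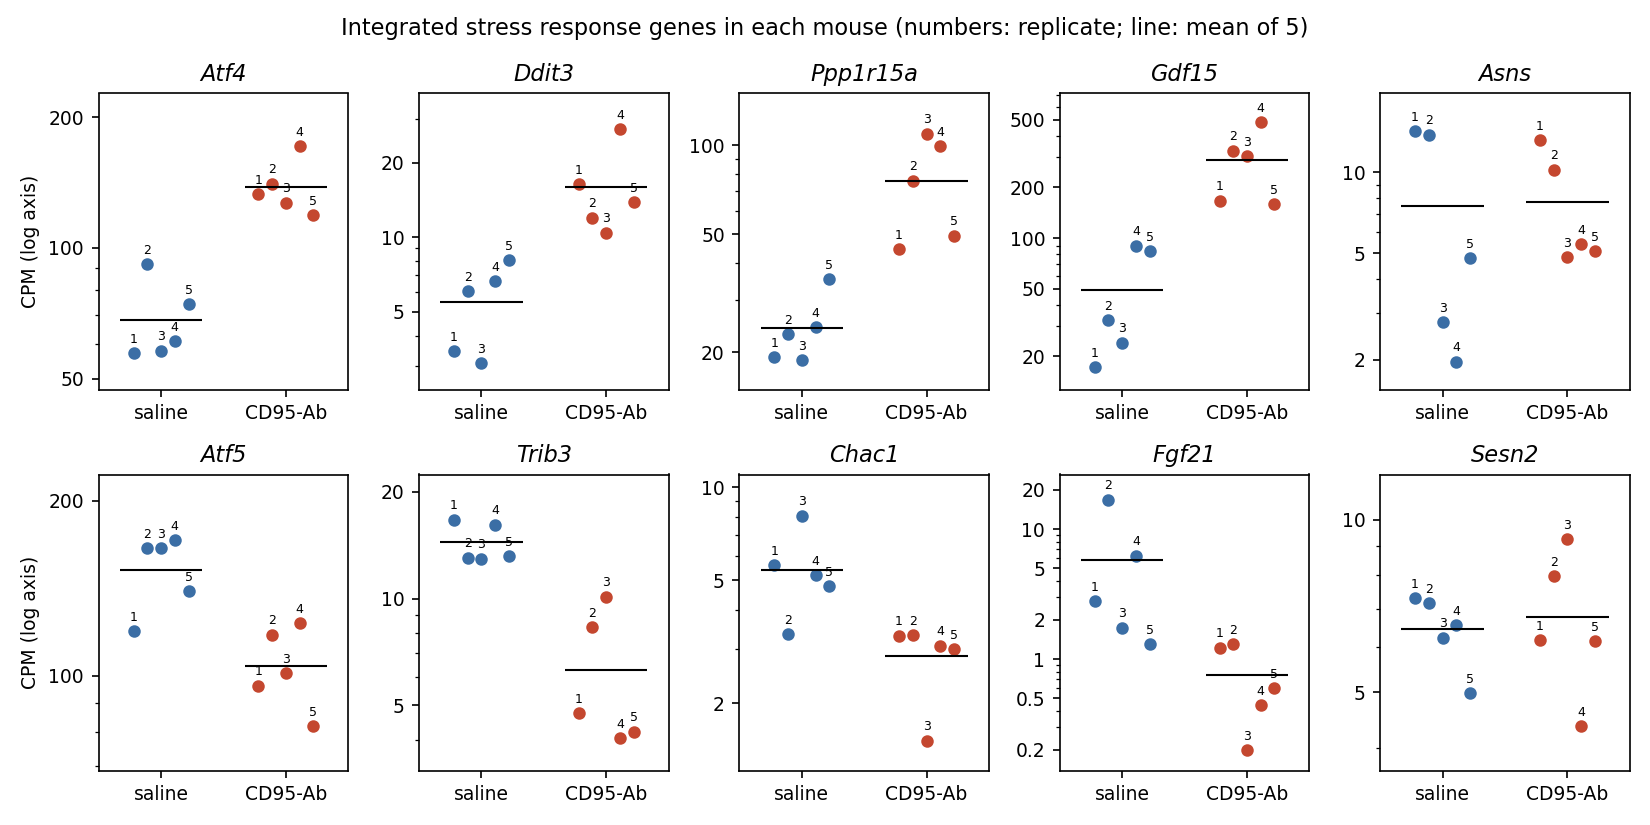
CPM of the 10 genes in each mouse, on a log axis, with 1 panel per gene, points numbered by replicate and a line at each group mean. The CD95-Ab points lie above all saline points for Atf4, Ddit3, Ppp1r15a and Gdf15 and below them for Trib3 and Chac1, and the groups overlap for Atf5, Fgf21, Asns and Sesn2.

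Ppp1r15a and Trib3 both act as feedback on the pathway, and they moved in opposite directions. Ppp1r15a encodes GADD34, which brings a phosphatase to eIF2α and so restores translation (ENSMUSG00000040435, chr7:45522916-45526268, minus strand). It measured 19.2, 23.0, 18.8, 24.3 and 35.3 CPM with saline and 44.6, 75.9, 109.8, 99.6 and 49.5 CPM with CD95-Ab. The groups did not overlap, and among CD95-Ab mice replicates 3 and 4 were high and replicates 1 and 5 low. The mean rose from 24.1 ± 6.71 to 75.9 ± 29.1 CPM, 3.14-fold (log2 fold change 1.65 ± 0.27, SE, edgeR, FDR = 4.35e-04).

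Trib3 encodes a pseudokinase that binds ATF4 and CHOP and dampens their activity (ENSMUSG00000032715, chr2:152337422-152344032, minus strand). It measured 16.7, 13.0, 13.0, 16.2 and 13.1 CPM with saline and 4.75, 8.31, 10.1, 4.04 and 4.21 CPM with CD95-Ab. The saline mice lay close together and above every CD95-Ab mouse, among which replicates 2 and 3 were the highest. The mean fell from 14.4 ± 1.86 to 6.28 ± 2.76 CPM, 2.30-fold (log2 fold change -1.20 ± 0.25, SE, edgeR, FDR = 0.00224). Trib3 is a known target of both ATF4 and CHOP, whose own RNAs were higher in the same livers.

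Of the intracellular targets, Chac1, which encodes an enzyme that degrades glutathione (ENSMUSG00000027313, chr2:119351229-119354381, plus strand), measured 5.60, 3.35, 8.09, 5.20 and 4.78 CPM with saline and 3.31, 3.31, 1.51, 3.07 and 2.99 CPM with CD95-Ab. The groups were separate by a narrow margin, since saline replicate 2 was at 3.35 CPM and the highest CD95-Ab mice at 3.31. The mean fell from 5.40 ± 1.72 to 2.84 ± 0.754 CPM (log2 fold change -0.92, 95% interval -1.49 to -0.36, edgeR, FDR = 0.0119).

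Asns encodes asparagine synthetase (ENSMUSG00000029752, chr6:7675169-7693254, minus strand). It measured 14.3, 13.8, 2.76, 1.96 and 4.78 CPM with saline and 13.2, 10.3, 4.82, 5.41 and 5.09 CPM with CD95-Ab. Replicates 1 and 2 were high in both groups, and the spread within a group was larger than the difference between the means, 7.52 ± 6.05 and 7.75 ± 3.78 CPM. The log2 fold change was 0.04 with a 95% interval from -1.12 to 1.20 (edgeR, FDR = 0.955), an interval that still includes a 2.29-fold increase, so a difference was not detectable with this spread.

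Sesn2 encodes sestrin 2, a stress-induced inhibitor of mTORC1 signalling (ENSMUSG00000028893, chr4:132492032-132510501, minus strand). It measured 7.29, 7.14, 6.23, 6.54 and 4.99 CPM with saline and 6.16, 7.96, 9.24, 4.36 and 6.13 CPM with CD95-Ab. CD95-Ab mice held both the highest and the lowest of the 10 values. The log2 fold change was 0.07 with a 95% interval from -0.35 to 0.50 (edgeR, FDR = 0.781), a much narrower interval than that of Asns.

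**Figure D2:**
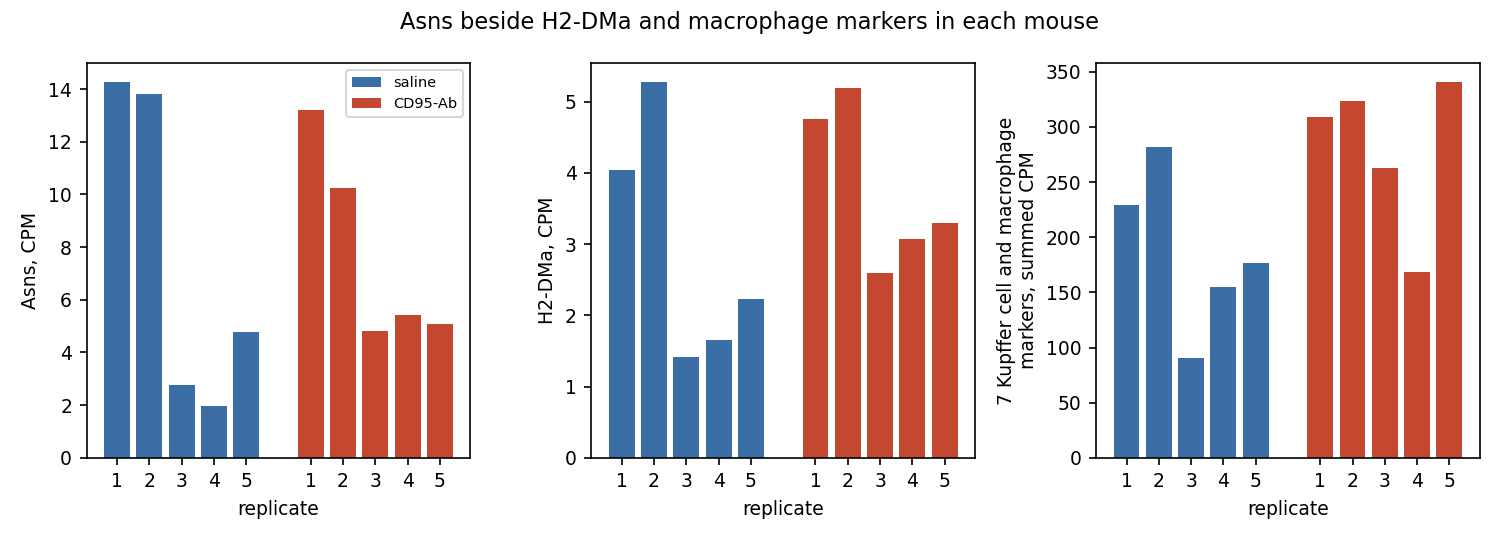
Bars show the CPM of Asns, the CPM of H2-DMa (a gene of antigen-presenting cells whose deviations from the group means were among the 3 most like those of Asns) and the summed CPM of 7 Kupffer cell and macrophage markers in each mouse, saline in blue and CD95-Ab in red. Replicates 1 and 2 are the highest of their group for Asns and H2-DMa in both groups, whereas for the summed markers CD95-Ab replicate 5 is the highest at 341.

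Both secreted proteins are stress hormones of the liver, and their RNAs moved apart more than any other pair of the 10 genes. Gdf15 encodes a hormone that suppresses appetite through a receptor in the hindbrain (ENSMUSG00000038508, chr8:70629393-70632456, minus strand). It measured 17.2, 32.6, 24.1, 90.0 and 83.5 CPM with saline and 166, 328, 305, 485 and 159 CPM with CD95-Ab. Saline replicates 4 and 5 were well above the other 3 but still below the lowest CD95-Ab mouse. The mean rose from 49.5 ± 34.5 to 289 ± 134 CPM, 5.84-fold (log2 fold change 2.55, 95% interval 1.46 to 3.63, edgeR, FDR = 0.00134).

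Fgf21 encodes a hormone that liver releases in fasting and in stress (ENSMUSG00000030827, chr7:45613886-45615490, minus strand). It measured 2.78, 16.8, 1.75, 6.23 and 1.30 CPM with saline and 1.22, 1.31, 0.199, 0.444 and 0.598 CPM with CD95-Ab, from as few as 5 counts in a mouse to 568. The groups met at 1 point, since CD95-Ab replicate 2 was just above saline replicate 5, and saline replicate 2 was far above the rest. The mean fell from 5.78 ± 6.48 to 0.753 ± 0.487 CPM (log2 fold change -2.91, 95% interval -4.51 to -1.31, edgeR, FDR = 0.00651), and the exact permutation test gave p = 0.0159. Without saline replicate 2 the log2 fold change was -1.97, and the call held. The hepatocyte markers had a median log2 fold change of -0.86 and ranged from -4.16 (G6pc) to 0.31 (Tat), and the next lowest after G6pc was Ass1 at -1.10. Of the genes that were lower, Atf5 stood at -0.55 and Chac1 at -0.92. Trib3 at -1.20 and Fgf21 at -2.91 were below every hepatocyte marker except G6pc. The part of hepatocyte RNA loss in these decreases was not tested. Ranked by log2 fold change among all tested genes, Fgf21 was number 43 from the lowest and Gdf15 number 568 from the highest.

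**Figure D3:**
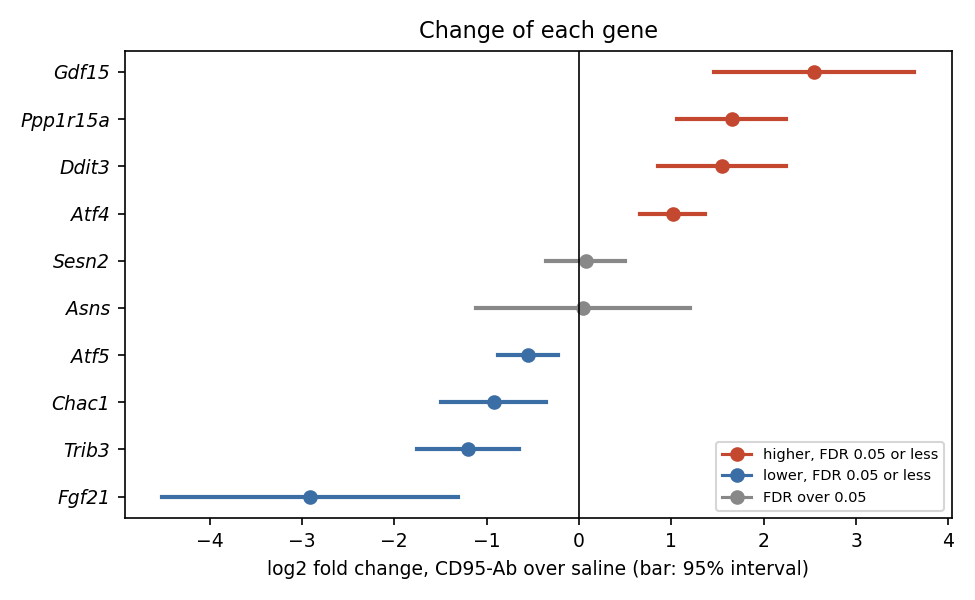
Log2 fold change (CD95-Ab over saline) of the 10 genes with 95% intervals from the edgeR fit, where 0 is no change. The intervals of Gdf15, Ppp1r15a, Ddit3 and Atf4 lie above 0, those of Atf5, Chac1, Trib3 and Fgf21 below 0, and those of Asns and Sesn2 include 0, with that of Asns the wider.

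Of the 10 genes, 4 were higher with no overlap between the groups, as were 18.6% of all tested genes, and 2 were lower with no overlap, as were 14.7%, while 33.3% of all tested genes had no overlap in either direction. Levels of different genes were compared in FPKM, the deposited values that are scaled for transcript length. In saline-injected mice the level of Atf5 was the highest at 89.6 ± 16.1 FPKM, followed by Atf4 at 42.5 ± 11.4, Gdf15 at 36.2 ± 22.9, Ppp1r15a at 11.1 ± 1.63, Trib3 at 7.67 ± 1.42, Fgf21 at 7.23 ± 8.59, Ddit3 at 6.64 ± 2.18, Asns at 4.21 ± 3.68, Chac1 at 3.52 ± 1.17 and Sesn2 at 1.97 ± 0.46 FPKM (SD, n = 5). Atf5 was above Atf4 in all 5 mice, but Atf4 was above Gdf15 in 3 of 5, Fgf21 above Ddit3 in 1 of 5 and Asns above Chac1 in 2 of 5, so these neighbours were not in a fixed order. With CD95-Ab the order began with Gdf15 at 199.8 ± 74.9 FPKM, Atf4 at 80.3 ± 9.90, Atf5 at 57.3 ± 8.09, Ppp1r15a at 36.1 ± 9.59 and Ddit3 at 18.6 ± 6.74, each above the next in all 5 mice. Asns at 4.09 ± 2.38, Trib3 at 3.14 ± 1.28, Sesn2 at 1.93 ± 0.53, Chac1 at 1.77 ± 0.58 and Fgf21 at 0.878 ± 0.625 FPKM followed. Gdf15 moved from the third place to the first, and Fgf21 to the last.

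**Figure D4:**
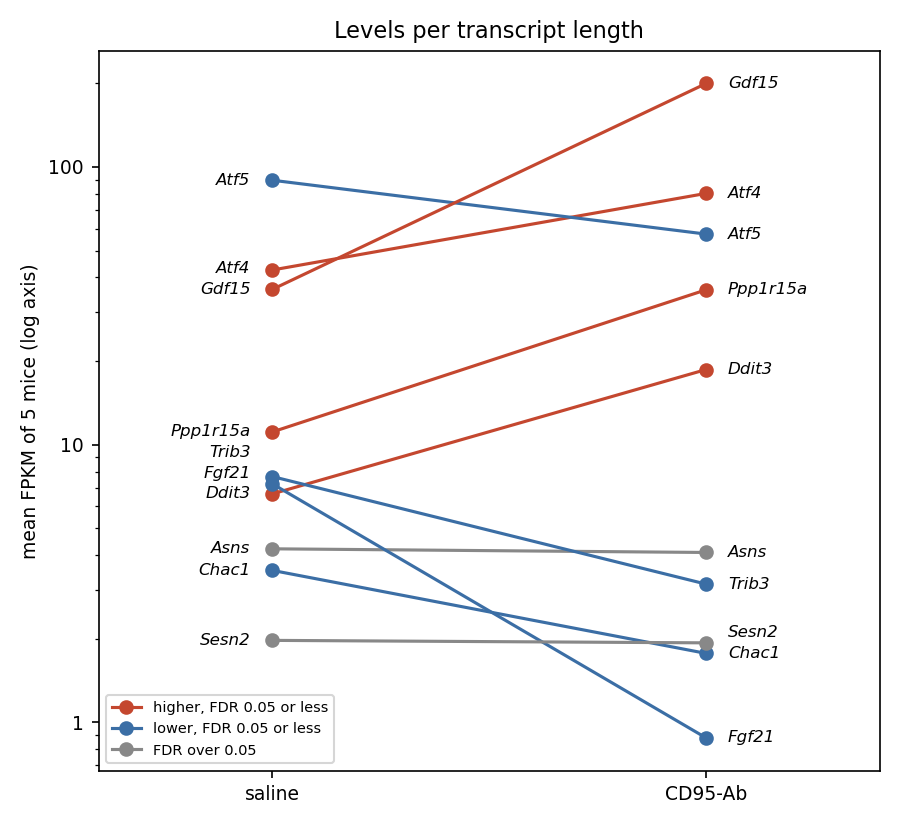
Mean FPKM of 5 mice per group for the 10 genes on a log axis, with saline on the left, CD95-Ab on the right and a line joining both means of a gene (red higher, blue lower, gray not past the FDR of 0.05), with the SDs given in the text only. Atf5 is the highest in saline-injected mice and Gdf15 with CD95-Ab, and Fgf21 is the lowest with CD95-Ab.

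The same values were also written within each mouse as ratios of FPKM. The pairs were chosen after their values were seen and are therefore given without a test. Ddit3 over Trib3 ranged from 0.488 to 1.45 in saline-injected mice (median 0.924) and from 2.38 to 15.5 with CD95-Ab (median 7.66). Atf4 over Atf5 ranged from 0.369 to 0.584 with saline and from 1.26 to 1.53 with CD95-Ab. Ppp1r15a over Chac1 ranged from 1.82 to 5.07 with saline and from 11.7 to 57.8 with CD95-Ab. In none of these ratios did the ranges of both groups meet. For Ddit3 over Trib3 and Ppp1r15a over Chac1 this follows from the single genes, whose groups did not overlap and moved in opposite directions. The ratios are thus no separate result.

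Other genes of the pathway, receptors of FGF21 and GDF15 and genes of related regulators were described with 10 lists holding 126 different genes. Each list was read against the 25.4% of tested genes that were higher and the 22.0% that were lower. Of the 18 genes listed for eIF2α kinases, their regulators and relays, phosphatase subunits and translation factors, 7 were higher and 3 lower. Eif2ak3, which encodes the endoplasmic reticulum kinase PERK, rose the most, from 10.5 ± 0.878 to 40.5 ± 11.6 CPM (log2 fold change 1.95, edgeR, FDR = 5.87e-06). Eif2ak2 (PKR, activated by double-stranded RNA) rose by 1.05 and Eif2ak4 (GCN2, activated by amino acid shortage) by 0.50 on the log2 scale, whereas Eif2ak1 (HRI, activated by heme shortage) changed by -0.49. Oma1 and Dele1, which relay mitochondrial stress to HRI, changed by -0.43 and -0.49. Impact, an inhibitor of GCN2 activation, rose by 0.80 and Eif2s1, which encodes eIF2α, by 0.51. Ppp1r15b, the constitutive counterpart of Ppp1r15a, did not pass the test at -0.27.

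Of 12 bZIP factors that pair with ATF4 or CHOP, 7 were higher and 1 lower, and the median log2 fold change was 1.22. Atf3, a stress-induced factor downstream of ATF4, rose from 12.5 ± 10.6 to 249 ± 85.7 CPM (log2 fold change 4.31 ± 0.61, SE, edgeR, FDR = 1.51e-04). Jdp2 and Cebpd rose by 2.84 and 2.27. The gene that was lower was Cebpa, a factor of the mature hepatocyte, which went from 233 ± 21.1 to 75.5 ± 15.3 CPM (log2 fold change -1.63).

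Of 9 tested amino acid transporters, 6 were higher and 0 lower in the edgeR test (median log2 fold change 1.43). No transporter was lower at an unadjusted p under 0.05 or with DESeq2 either (0 in both). Slc7a1, which carries arginine and lysine, rose from 0.888 ± 0.344 to 14.1 ± 4.55 CPM (log2 fold change 4.01, edgeR, FDR = 2.11e-06). The cystine carrier Slc7a11 rose by 2.85, the glutamine carrier Slc1a5 by 1.98 and Slc1a4 by 1.79. Enzymes of amino acid synthesis and one-carbon metabolism were split, 3 of 12 tested being higher and 4 lower. Psat1 of serine synthesis rose by 2.65, mitochondrial Mthfd2 by 2.61 and Aldh18a1 of proline synthesis by 1.48, all from a mean of at most 1.60 CPM with saline. Got1, an aspartate aminotransferase that was abundant in saline livers, went from 233 ± 79.4 to 87.7 ± 46.2 CPM, a log2 fold change of -1.41. Cth, Cbs and Shmt2 were also lower.

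Of 13 genes of tRNA charging and export, 4 were higher and 1 lower. Wars, Nars and Lars, which charge tryptophan, asparagine and leucine tRNAs, rose by 1.14, 0.71 and 0.47, and Xpot, the tRNA exporter, changed by -0.49. Of 13 other tested targets of ATF4 and CHOP, 6 were higher and 2 lower. Tnfrsf10b, a death receptor for TRAIL, rose by 2.23, Ero1l, an oxidase of the endoplasmic reticulum, by 1.84 and Bcl2l11, which encodes the death factor BIM, by 1.61. Vldlr and Herpud1 were lower, at -1.44 and -1.10. Among these target genes, as among the 10 genes, some were higher and some lower.

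**Figure D5:**
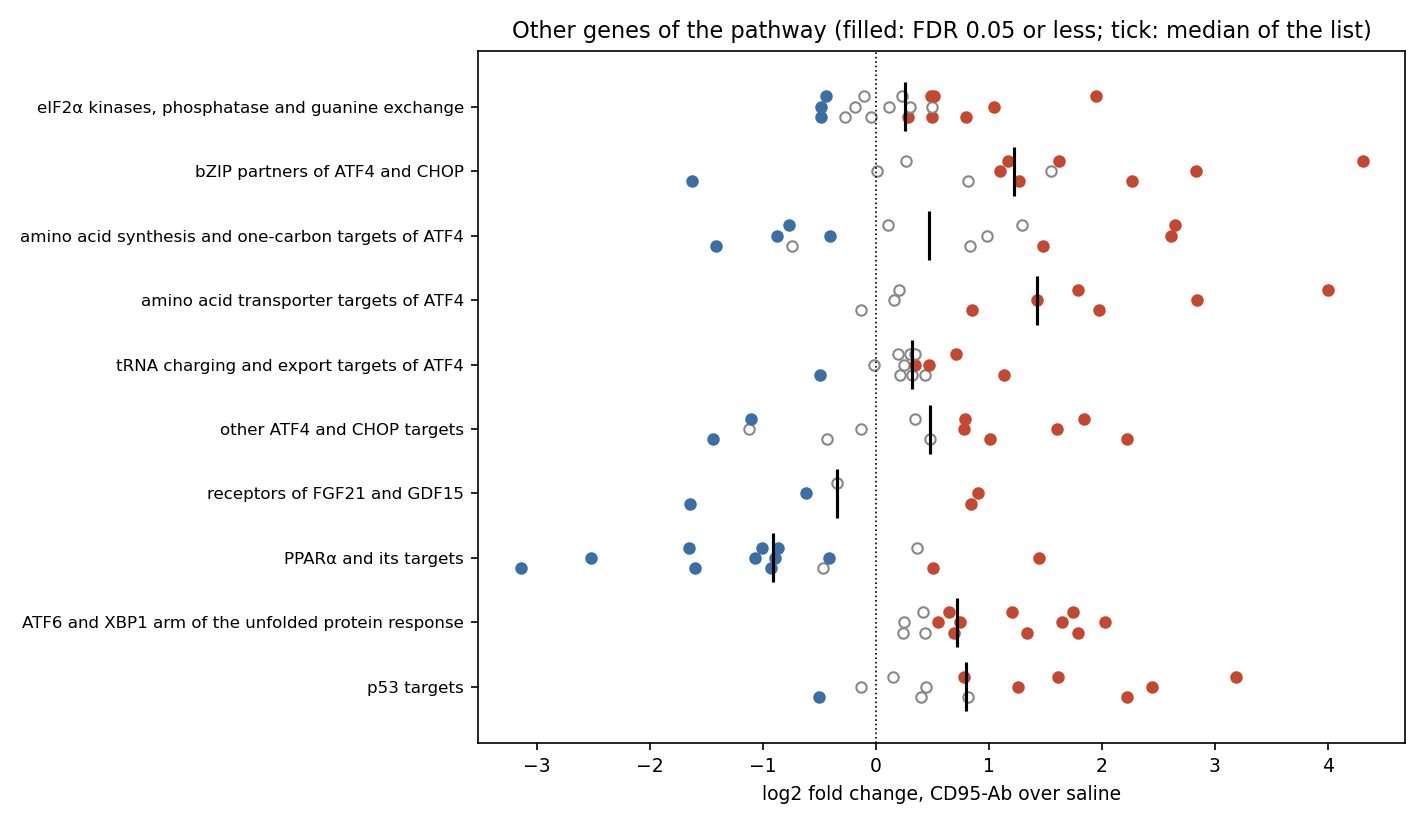
Log2 fold change (CD95-Ab over saline) of every tested gene of the 10 lists, 1 row per list, with red points for genes called higher, blue for lower, open for not called and a black tick at the list median. The medians of the bZIP partners (1.22) and amino acid transporters (1.43) lie to the right of 0, and that of PPARα and its targets (-0.91) to the left.

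Fgf21 is also a known target of PPARα, the fasting regulator of fatty acid oxidation, and PPARα target genes were mostly lower. Of 14 genes of this list, Ppara included, 10 were lower and 2 higher. The median log2 fold change was -0.91, close to the -0.86 of the hepatocyte markers, of which 6 of 10 were lower. Ppara itself went from 64.5 ± 18.2 to 21.3 ± 9.86 CPM (log2 fold change -1.60 ± 0.35, SE, edgeR, FDR = 0.00261). Cyp4a14, Cyp4a10 and Angptl4 were lower too, with log2 fold changes of -3.14, -2.52 and -1.65. Pdk4 and Plin2 were higher, at 1.44 and 0.51. The part of PPARα in the decrease of Fgf21 was not tested. Of 5 tested genes for receptors of FGF21, Klb, the co-receptor for FGF21, was lower (log2 fold change -1.64) as was Fgfr3 (-0.62), Fgfr1 and Fgfr2 were higher (0.91 and 0.84), and Fgfr4 did not pass the test at -0.34. Neither gene of the GDF15 receptor was tested. Gfral, its hindbrain subunit, had 0 counts in all 10 livers, and Ret, its signaling subunit, had 0 counts in the saline livers and 0.0404 to 0.225 CPM with CD95-Ab, at most 7 counts in a mouse.

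The ATF6 and XBP1 arm of the unfolded protein response acts beside PERK on endoplasmic reticulum stress. Of 14 genes listed for it, 10 were higher and 0 lower in the edgeR test (median log2 fold change 0.72). At an unadjusted p under 0.05, 0 were lower, and 0 with DESeq2. These counts depend on which genes were put on the list. Herpud1, placed with the other ATF4 and CHOP targets, was lower at -1.10. Hspa5, the main chaperone of the endoplasmic reticulum, rose from 335 ± 45.2 to 1127 ± 245 CPM (log2 fold change 1.75). Hyou1, Creld2 and Manf rose by 2.03, 1.80 and 1.65. Gdf15 and Sesn2 are also p53 targets, and of 12 other p53 targets 6 were higher and 1 lower. Cdkn1a, the cell cycle inhibitor p21, rose by 3.19, Plk2 by 2.45, Tnfrsf10b, which is on both lists, by 2.23 and Eda2r by 1.62. The gene that was lower was Sesn1, a paralog of Sesn2, at -0.50.

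Likeness to other genes was measured over the 10 mice as the correlation of deviations of log2 CPM from the group means, which leaves out the difference between groups. It was computed against 12129 tested genes with a mean of at least 1 CPM, and the highest of so many correlations over 10 mice that share their libraries is large by construction, so the values are a description without a p. Nearest to Atf4 were Siah2, Nat2 and Top3a (Pearson r 0.930, 0.921 and 0.898). Nearest to Atf5 were Pgam5, Bcas2 and Eif4a3 (0.925, 0.897 and 0.892). Nearest to Ddit3 were Srsf2, Pick1 and Tatdn1 (0.947, 0.936 and 0.935), none of which passed the test between groups.

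Trib3 varied most closely with Tbk1 (r 0.978), a kinase that was itself higher with CD95-Ab (log2 fold change 0.87), then with Gnb1 and Manbal (0.955 and 0.946). Nearest to Chac1 were Slx4ip, Ddhd2 and Armc9 (0.865, 0.860 and 0.841). Nearest to Ppp1r15a were Dazap1, Gm42418 and Bnip1 (0.972, 0.969 and 0.965). Gm42418, a predicted gene, ranged from 141 to 270 CPM with saline and from 1326 to 3664 with CD95-Ab, and CD95-Ab replicates 2, 3 and 4 were the highest 3 for it as for Ppp1r15a. The summed transcripts listed as lacking a poly(A) tail were also highest in these mice, at 726, 845 and 1337 CPM, beside 377 and 593 in replicates 1 and 5. With saline this sum was highest in replicate 4, and Ppp1r15a in replicate 5. What these values share was not tested. Nearest to Gdf15 were Xab2, Trib1 and Ubl7 (0.956, 0.946 and 0.945), of which Trib1, a paralog of Trib3, was higher with CD95-Ab (log2 fold change 1.48). Nearest to Fgf21 were Repin1, Ldhd and Ptbp1 (0.916, 0.900 and 0.897). None of the 10 genes was among the nearest 3 of another.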

How the data were processed

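RNA-seq of liver from 5 saline-injected and 5 CD95-Ab-injected mice was analysed, with condition and replicate number taken from the sample labels. Per the methods, the authors ran RSEM (version 1.2.19), and each mouse has a table of estimated fragments and length-scaled levels per gene. The deposited expected counts are not normalized and were whole numbers. The deposited FPKM are scaled by RSEM for length and library total, and served for levels between genes. RSEM divides reads that match several genes between them, so overlapping genes and paralogs depend on that step. The methods name a human Gencode release, whereas the identifiers are mouse Ensembl identifiers, and the mouse release and build are not given in the sources used here. Symbols came from GENCODE mouse release 21 (GRCm38), which matched 37606 of the 38922 identifiers.

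Genes were kept by filterByExpr (minimum count 10), scaled with TMM factors and compared with the edgeR 4.0.16 quasi-likelihood test (R 4.3.3), without covariates, at an FDR threshold of 0.05. Standard errors were derived from the F statistic, and 95% intervals from its degrees of freedom. A single gene was also compared with an exact permutation test on log2(CPM + 0.1). DESeq2 1.42.0 was an alternative, as were the likelihood ratio test, RLE and upper quartile factors, total counts, no filter, at least 10 counts in every mouse, a prior count of 2, an FDR of 0.01, a replicate block, and leaving out 1 mouse at a time. Python 3.11.15 with scipy 1.17.1 and pandas 2.3.3 served for tables and exact tests. The code was tested on simulated counts. Depth was 25965699 to 62097636 counts per mouse, and the floor of 3 counts covers counting error only.

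The 10 genes and all lists were chosen with earlier results of these data known. The genes named are the 10 genes, the 4 called genes of each list with the largest absolute log2 fold change, the eIF2α kinases and Ppara, and the 3 genes most like each called gene. Others named were chosen after their values were seen. Promoters came from RefSeq (GRCm38.p6), matched by symbol. They were found for all 10 genes and for 95 of the 126 genes of the lists, so no share of motifs over the lists is given. Pairs of mice within groups differed by more than sampling noise, so each counted as 1 replicate. Proteins, histone acetylation and survival were not analysed here.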

Additional observations from a re-analysis of the deposited data

Results flagged for a closer look

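Each of the 10 genes was examined in each group for a mouse standing apart, by Dixon's ratio of the gap to the whole range of log2(CPM + 0.1). Of these 20 combinations 1 was beyond the 95% critical value, and chance gives about 1 in 20. It was Chac1 in CD95-Ab replicate 3, the lowest of its group at 1.51 CPM beside 2.99 to 3.31 CPM in the other 4 mice, with a ratio of 0.867. The decrease of Chac1 held without this mouse.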

How the results depend on the processing

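The 8 calls among the 10 genes kept their direction under every alternative tried, and kept the FDR threshold of 0.05 in every fit in which the gene was tested. They included every fit with 1 mouse left out, with 4 higher and 4 lower each time and 5616 to 6977 genes called in all. Fgf21 was not tested where at least 10 counts were required in every mouse. At an FDR of 0.01, 4492 genes were called in place of 6495 and Chac1 was not. The log2 fold change of Asns was 0.04 and ranged from -0.24 to 0.40 with a mouse left out, and was -0.035 with upper quartile factors and -0.058 with total counts. That of Sesn2 ranged from -0.062 to 0.18, and was -0.0054 and -0.025 with the same factors. Neither has a direction. That of Fgf21 ranged from -3.19 to -1.97, the latter without saline replicate 2. DESeq2 called 6990 genes, and 4 of the other ATF4 and CHOP targets lower. With total counts alone, 4 eIF2α genes, 2 tRNA genes and 1 receptor gene were higher, and at an FDR of 0.01, 4, 2 and 0, with 1 receptor gene and 0 p53 targets lower. Of the PPARα list, 1 gene was higher with RLE or upper quartile factors, with total counts, without a filter and with the replicate block, and 0 at an FDR of 0.01. With a mouse left out, genes higher were 3 to 5 for amino acid synthesis and 1 to 2 for the PPARα list, and genes lower were 0 to 1 for p53 targets and 1 to 2 for receptors. The cause of these shifts was not tested. Of the 10 genes, Fgf21 had the widest interval (standard error 0.73), followed by Asns (0.53) and Gdf15 (0.50). The width did not follow counts alone, since Gdf15 had 733 to 12018 counts in a mouse and Sesn2, with 108 to 310, a standard error of 0.20.

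Over all tested genes, the replicate numbers in the labels gave no clear pairing of the mice. Whether some mice of the same number share a day, cage or batch cannot be told from these values. The correlation of deviations of same-numbered mice was 0.257, 0.0875, 0.130, -0.0166 and -0.274 for numbers 1 to 5, and the own number was the best match for 2 of 5. With the replicate block, 5987 genes were called, 4 of the 10 genes were higher and 4 lower, and 0 p53 targets were lower. The log2 fold change with the block was -0.90 for Chac1 (edgeR, FDR = 0.0486) and -2.52 for Fgf21. That of Asns, which was high in replicates 1 and 2 of both groups, went from 0.04 with a standard error of 0.53 to 0.32 with a standard error of 0.27, and did not pass the test (edgeR, FDR = 0.371).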

Other observations

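Asns did not pass the test between groups, and it varied within both groups in the same way as a few immune genes. The genes whose deviations from the group means were most like those of Asns were Phf11b (r = 0.957), H2-DMa (0.949) and Ifi206 (0.943) over the 10 mice, given without a p because they are the nearest of 12129 genes. In saline replicates 1 to 5, Ifi206, an interferon-inducible gene, measured 2.68, 2.73, 0.676, 0.462 and 0.723 CPM, and with CD95-Ab 10.5, 14.1, 4.38, 3.75 and 5.58 CPM. H2-DMa, which loads peptides on class II molecules of antigen-presenting cells, measured 4.05, 5.28, 1.41, 1.65 and 2.22 CPM with saline and 4.75, 5.19, 2.59, 3.07 and 3.30 CPM with CD95-Ab. In both groups, replicates 1 and 2 held the highest 2 values of each gene. The summed Kupffer cell and macrophage markers were also highest in replicates 1 and 2 among saline-injected mice, at 229 and 282 CPM, but with CD95-Ab the highest was replicate 5 at 341 CPM. What the labels share between replicates of the same number is not stated. These genes were chosen after their values were seen.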
